A study of Macaca mulatta with 8 samples.

Results

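Kainate and GABA-A receptor subunits are the subject here: GRIK1 and GRIK3, which encode the kainate receptor subunits GluK1 and GluK3, and GABRA5, which encodes the alpha5 subunit of the GABA-A receptor. They were chosen by name and found through the RefSeq transcript that the array's files give for each probe. Each gene had 1 probe, so that they made up 3 of the 20217 probes of the array and 3 of the 835 genes that could be named on it. The probes were A_01_P012758 for GRIK1 (transcript XM_001100677), A_01_P010638 for GRIK3 (XM_001111351) and A_01_P006409 for GABRA5 (XM_001109231). The reference gene table lists 6 RefSeq transcripts for GRIK1, 1 for GRIK3 and 6 for GABRA5, and which of them a probe detects was not analysed here.

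The samples were total RNA of 2 areas of the neocortex of the rhesus macaque (Macaca mulatta), the primary motor cortex (M1) and A46, which belongs to the prefrontal association cortex. They came from 4 adolescent animals of 2.6 to 2.7 years, reared in group cages and given no experimental treatment. After an overdose of pentobarbital and perfusion with heparinised saline, the forelimb part of M1, and for A46 both banks of the principal sulcus, were dissected from the left hemisphere. Each area was measured on 4 single-colour arrays, numbered 1 to 4. The comparison asked how gene expression in motor cortex departs from that in prefrontal cortex. The labels do not say which animal gave which array.

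Kainate receptors are glutamate-gated cation channels built from 4 subunits of the GluK family. GluK1 to GluK3 can form working channels, at presynaptic as well as postsynaptic sites, and in rodent hippocampus GluK1 is known from inhibitory interneurons. GABA-A receptors are GABA-gated chloride channels of 5 subunits, and those with alpha5 are known for lying largely outside synapses, where they carry a tonic inhibitory current. Both receptor types set how strongly cortical neurons respond to their inputs.

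GRIK1 stood 1.65-fold higher in A46 on the average of the arrays, while GRIK3 and GABRA5 differed between the areas by less than their spread. Levels are log2 processed signals relative to the 75th percentile of the same array, and differences are A46 minus M1. The GRIK1 difference was 0.72 ± 0.20 (SE, n = 4 arrays per area), and it passed the threshold only in fits that took account of the replicate number or the scan day. The GRIK3 difference was -0.10 ± 0.23 and that of GABRA5 0.12 ± 0.22. The 3 differences were not shown to differ from each other.

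Of the 20217 probes, 14698 stood well above background in every array of A46, of M1 or of both, and these were tested together with limma at an adjusted p under 0.05. The share well above background on a single array was 71.4% to 77.3%. The 75th percentile lay between 1232 and 2008 scanner units, and the median negative control spot between 1.11 and 4.90 units. The scans of A46 replicates 3 and 4 and of M1 replicate 4 were made on later days than the other 5, and these 3 arrays stood apart on the first principal component, at 37.0 to 44.8 against -37.4 to -16.6. Numbers 1, 2 and 4 shared a scan day across the areas, and number 1 also shared a slide. The same-numbered arrays deviated together from their area means (r = 0.166 to 0.858 across the tested probes, which are not independent replicates). Number 3 paired poorly, at 0.166. A46 replicate 3 correlated more with M1 replicate 4 (0.483), and M1 replicate 3 more with A46 replicate 2 (0.262). Results with the replicate number as a block are therefore given beside those without it.

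The GRIK1 probe was bright on every array. In A46 its level was 0.36 in replicate 1, -0.19 in replicate 2, 0.12 in replicate 3 and -0.27 in replicate 4. In M1 it was -0.26 in replicate 1, -0.90 in replicate 2, -0.87 in replicate 3 and -0.83 in replicate 4. Replicate 1 was the highest array in both areas, and M1 replicate 1 lay level with the lowest A46 array, so that the areas overlapped by 0.0080 log2 units. Without M1 replicate 1, the remaining M1 arrays all lay below every A46 array. In scanner units the signal ran from 1204 to 2009 in A46 and from 681 to 1128 in M1.

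**Figure D1:**
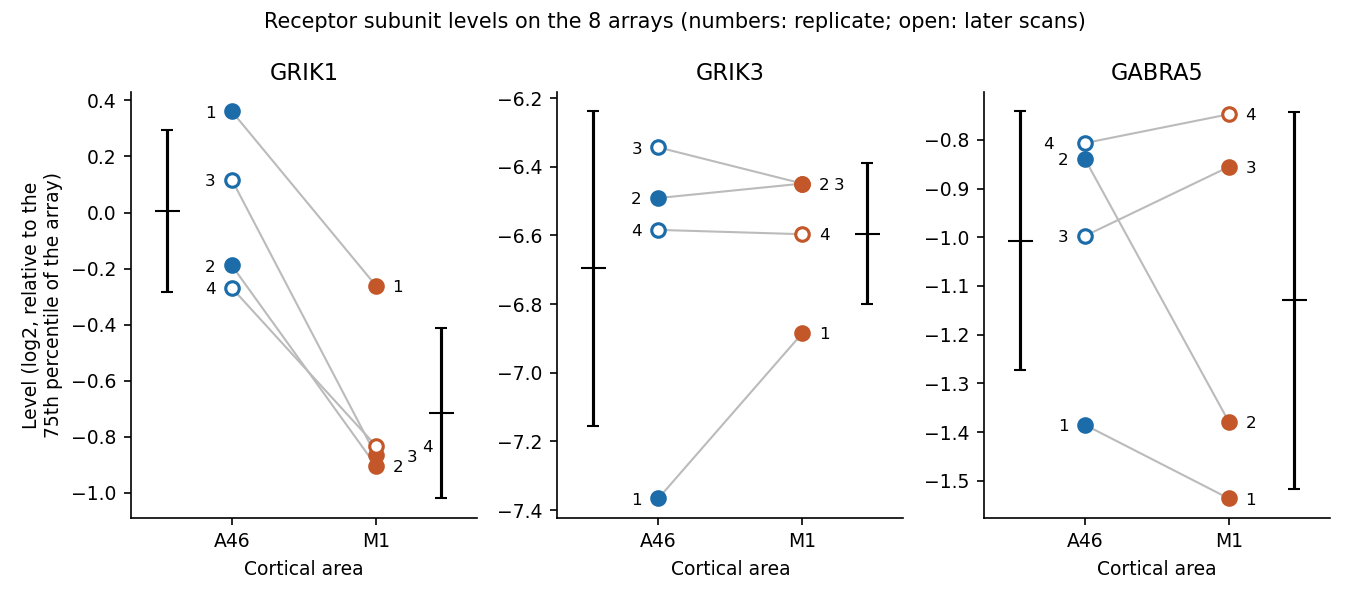
Levels of GRIK1, GRIK3 and GABRA5 (log2, relative to the 75th percentile of each array; each panel has its own axis) in A46 and M1, with 1 point per array, lines between arrays of the same number, and the mean ± SD (n = 4) as black bars. All 4 lines of GRIK1 fall from A46 to M1, while 2 of the 4 lines of GRIK3 and of GABRA5 fall and 2 rise.

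The mean GRIK1 level was 0.0051 ± 0.29 (SD, n = 4) in A46 and -0.72 ± 0.30 in M1. With the area as the only term, the 95% interval of the difference was 0.27 to 1.17, and the limma fit across all probes gave an adjusted p of 0.247. None of the 3 genes passed in this fit, in which 0.184% of the tested probes did (27 probes; 0.0476% as higher in A46), against 9.44% at an unadjusted p under 0.05. Of the tested probes, 2.97% were higher in A46 with no overlap between the areas, and none of the 3 genes was among them. An exact two-sided permutation test of the 4 against 4 GRIK1 levels gave p = 0.0571, where 0.0286 is the smallest p it allows. Of all tested probes, 3.35% had a larger absolute difference than GRIK1, and 64.4% and 58.5% had a larger one than GRIK3 and GABRA5.

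With the replicate number as a block, GRIK1 was higher in A46 (0.72 ± 0.10 SE, 95% interval 0.47 to 0.97, limma adjusted p = 0.0366). In that fit 2.59% of the tested probes passed, 0.973% as higher in A46, and GRIK1 was the only one of the 3 genes among them. The same-numbered arrays differed by 0.62, 0.71, 0.98 and 0.56 for numbers 1 to 4. The sign was the same in all 4 pairs, as it was for 17.0% of all tested probes in that direction. An exact sign-flip permutation test of 4 pairs cannot go below p = 0.125, which was the value for GRIK1. The residual SD of GRIK1 was 0.30 without the block and 0.13 with it, where the medians of all tested probes were 0.27 and 0.16.

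The call in the blocked fit depended on which pairs entered, and each pair left out also took away residual degrees of freedom. Without the pair of replicate 1, 2 or 4 the GRIK1 difference was 0.75, 0.72 and 0.77 and missed the threshold (limma adjusted p = 0.179, 0.158 and 0.118). The loss was not particular to GRIK1, since 2, 0 and 1 of all tested probes passed there, against 380 with all pairs. Without the pair of replicate 3 the GRIK1 difference was 0.63 (limma adjusted p = 0.0354), and 405 of all tested probes passed. The arrays of replicate 3 had been scanned on different days. They held the largest of the 4 pair differences and the lowest of the same-number correlations.

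Grouped by scan day, GRIK1 stood higher in A46, but these groups largely repeat the same-numbered pairs and are not separate evidence. On the first day, which held A46 replicate 2 and M1 replicates 2 and 3, the difference was 0.70, on the second (replicate 1 of each area) 0.62 and on the third (replicate 4 of each area) 0.56. With the scan day as a fixed term the difference was 0.63 ± 0.08 (SE, limma adjusted p = 0.0428; 1.04% of the tested probes passed, 0.388% as higher in A46). A46 replicate 3 was alone on its day and adds nothing to that estimate. Leaving out each single array in the fit without a block gave differences of 0.60 to 0.87 and limma adjusted p from 0.203 to 0.614. A46 was higher each time, but with so little overlap no single array could have turned that sign.

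GRIK3, the kainate receptor subunit known for its low affinity for glutamate, gave a signal close to background. In A46 its level was -7.37, -6.49, -6.34 and -6.58 in replicates 1 to 4, and in M1 it was -6.88, -6.45, -6.45 and -6.60. Replicate 1 was the lowest array in both areas, the reverse of GRIK1, and the areas overlapped over the whole M1 range. These levels were 8.24 to 22.8 scanner units, or 4.24 to 15.0 times the median negative control spot of the array. The probe was well above background on all 4 A46 arrays and on 3 of the 4 M1 arrays, the exception being M1 replicate 4. It entered the test through A46.

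**Figure D2:**
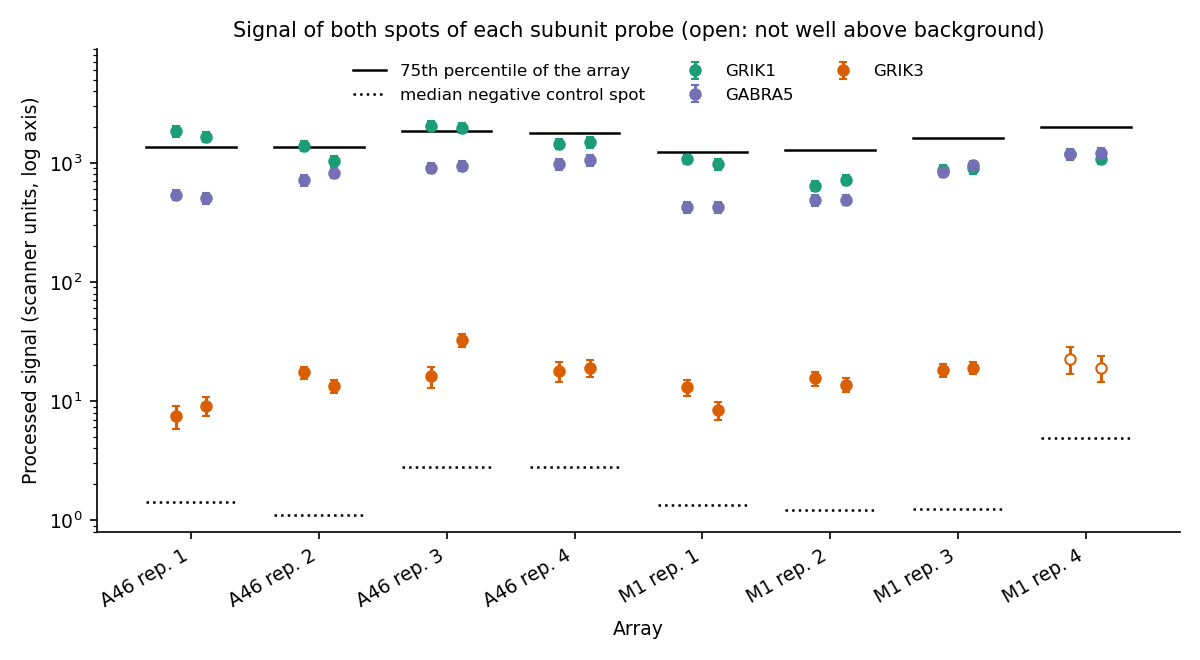
Processed signal of both spots of the GRIK1, GABRA5 and GRIK3 probes on each array (scanner units, log axis), with the error given by the scanner software as bars, and the 75th percentile of the array and the median negative control spot as lines. GRIK3 lies between 7.45 and 32.3 units and its spots on M1 replicate 4 are open, since they were not well above background; the brightness of different probes does not rank their transcripts.

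The mean GRIK3 level was -6.70 ± 0.46 (SD, n = 4) in A46 and -6.59 ± 0.21 in M1. The 95% interval of the difference was -0.62 to 0.42, a ratio of A46 to M1 between 0.649 and 1.34 (limma adjusted p = 0.956). With the block the interval was -0.40 to 0.20 (adjusted p = 0.659). The same-numbered arrays differed by -0.48, -0.042, 0.11 and 0.013, so that the sign was split and replicate 1 alone lay far from 0. Without A46 replicate 1 the difference was 0.12. The 2 spots of the probe on an array differed by up to 1.01 log2 units, and the first spots alone gave a difference of -0.35 and the second spots alone 0.15. With the area as the only term, the GRIK1 difference of 0.72 lay outside the GRIK3 interval. The interval of GRIK1 itself (0.27 to 1.17) overlapped with it, however. The comparison of the genes by their ratio, given below, did not show after adjustment that they differed. At this signal the spots of GRIK3 also differed more within an array than those of the other genes. The scanner software's own error was 11.6% to 24.7% of the GRIK3 signal per spot.

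GABRA5 was well above background on all 8 arrays. Its level in A46 was -1.38, -0.84, -0.997 and -0.81 in replicates 1 to 4, and in M1 it was -1.54, -1.38, -0.86 and -0.75. Replicate 1 was the lowest and replicate 4 the highest array in each area, and the areas overlapped over most of their range. The signal ran from 521 to 1011 scanner units in A46 and from 425 to 1196 in M1. The 2 spots on an array differed by at most 0.20 log2 units, so that the spread between arrays was wider than that between spots.

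The mean GABRA5 level was -1.01 ± 0.27 (SD, n = 4) in A46 and -1.13 ± 0.39 in M1. The 95% interval of the difference was -0.37 to 0.62, a ratio of A46 to M1 between 0.773 and 1.53 (limma adjusted p = 0.941). With the block the interval was -0.21 to 0.45 (adjusted p = 0.629). The same-numbered arrays differed by 0.15, 0.54, -0.14 and -0.059, so that the mean difference came mostly from replicate 2. Without the pair of replicate 2 the blocked difference was -0.017. The mean GABRA5 level on the earlier scans was -1.11 in A46 and -1.26 in M1. On the later scans it was -0.90 in A46 (replicates 3 and 4) and -0.75 in M1 (replicate 4 alone). The scan set means within an area thus differed by more than the areas did, but in A46 the sets overlapped. There the earlier replicate 2 (-0.84) lay between the later replicates 3 (-0.997) and 4 (-0.81). Scan and animal cannot be told apart here, since no label ties arrays to animals.

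The area differences of the genes were compared with each other on the log2 ratio of their signals within an array, from which any shift of a whole array cancels. The ratio of GRIK1 to GRIK3 was 0.82 log2 units higher in A46 (exact two-sided permutation p = 0.114), that of GRIK1 to GABRA5 0.60 higher (exact p = 0.229), and that of GRIK3 to GABRA5 differed by -0.22 (exact p = 0.371). After Benjamini-Hochberg adjustment over the 3 comparisons these were 0.343, 0.343 and 0.371. The ratios of GRIK1 to each of the other genes were higher in A46 in all 4 same-numbered pairs, by 0.55 to 1.10 log2 units against GRIK3 and by 0.17 to 1.13 against GABRA5, where the smallest p of the exact sign-flip permutation is 0.125. The value of 0.55 is that of replicate 4, where GRIK3 was not well above background in M1, so that this ratio is not a measured value on both sides. The other 3 pairs lay between 0.76 and 1.10, and without M1 replicate 4 the difference of the ratios was 0.78 (exact permutation p = 0.229). Without A46 replicate 1 it was smaller, at 0.48, and that of GRIK1 to GABRA5 was 0.35. With normexp background correction the ratio of GRIK1 to GRIK3 differed by 0.69 at the smallest exact p the arrays allow, 0.0286, and at 0.0857 after adjustment. After adjustment the arrays therefore did not show that GRIK1 differed between the areas by more than GRIK3 or GABRA5.

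The other genes of the glutamate and GABA systems could be read only in small part. Of 129 genes in 11 lists of receptor subunits, their partners, transporters and enzymes, 9 had a named probe and 8 were tested, with a median difference of -0.0052 log2 units against 0.015 over all tested probes. None of the 8 passed without the block, where 0.184% of all tested probes did, and GRIK1 was the only one that passed with it, as higher in A46, where 2.59% of all tested probes passed and 0.973% in that direction. No probe could be named for the AMPA, NMDA and delta receptor subunits or for the metabotropic glutamate receptors. The kainate receptor list of 7 genes was represented by GRIK1 and GRIK3 alone, and the GABA-A subunit list of 19 by GABRA5, GABRR2 and GABRA6.

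Among the GABA-A subunits, GABRR2, the rho2 subunit known from the retina, had a mean level of -6.23 ± 0.32 (SD over 4 arrays) in A46 and of -6.67 ± 0.53 in M1. GABRR2 was well above background on all 4 A46 arrays and on 3 of the 4 M1 arrays, and it entered the test through A46. Its difference was 0.44 ± 0.27 (SE, limma adjusted p = 0.737, and 0.255 with the block). Since A46 is also the area where it was higher, the filter can favour this direction. With normexp background correction the difference was 0.062. On the main values GABRR2 was higher in A46 in 3 of 4 pairs. Among these was the pair of replicate 1, whose M1 array was not well above background, so that this pair is not measured on both sides. GABRA6, the alpha6 subunit known from cerebellar granule cells, was not well above background on any of the 8 arrays and was not tested. KCTD8, an auxiliary subunit of the GABA-B receptor, differed by 0.091 ± 0.27 (adjusted p = 0.967), with areas that overlapped.

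Of the transporters, SLC6A9, the glycine transporter GlyT1, had a mean level of -5.01 ± 0.58 (SD over 4 arrays) in A46 and of -4.46 ± 0.32 in M1. It was lower in A46 in all 4 pairs, by -0.54 ± 0.29 (SE, limma adjusted p = 0.653), and with the block it also missed the threshold (-0.54 ± 0.13, adjusted p = 0.0865). SLC6A11, the GABA transporter GAT3, differed by -0.20 ± 0.18 (SE, adjusted p = 0.860), and SLC17A8, the vesicular glutamate transporter VGLUT3, by -0.20 ± 0.22 (adjusted p = 0.891). For both the areas overlapped. SLC6A11 was lower in A46 in all 4 same-numbered pairs, but by only -0.065 and -0.027 in those of replicates 3 and 4. The share of all tested probes lower in A46 in all 4 pairs was not counted, and in the other direction it was 17.0%. The shared sign of SLC6A9 or SLC6A11 is therefore not read as a result.

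**Figure D3:**
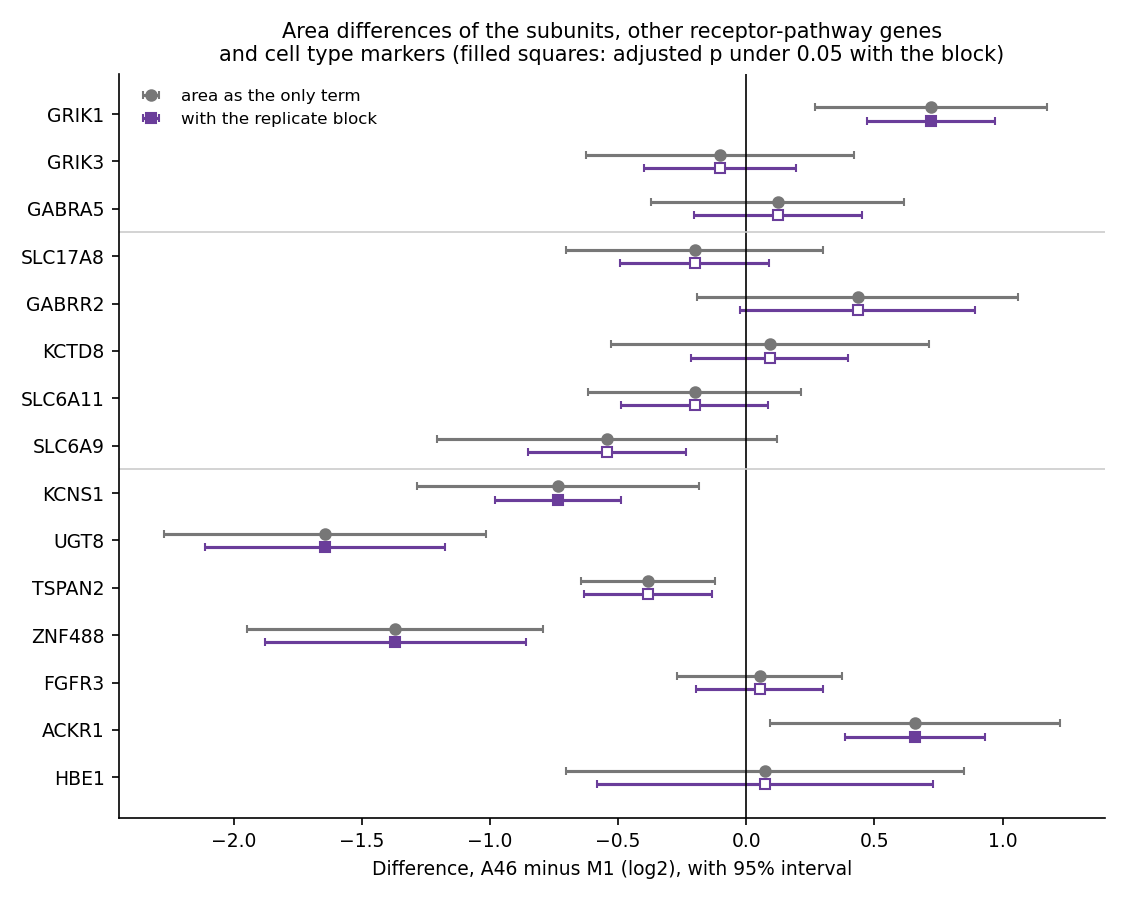
Difference between the areas (A46 minus M1, log2) with its 95% interval for the 3 subunits, the 5 other tested genes of the glutamate, GABA and glycine systems and 7 cell type markers, with the area as the only term (circles) and with the replicate block (squares, filled where the adjusted p was under 0.05). GRIK1 at 0.72 is the only receptor-pathway gene with a filled square; the intervals of GRIK3 and GABRA5 span 0.

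None of the 7 cell type markers with a named probe passed with the area as the only term, where 0.184% of all tested probes did. With the block, where 2.59% of all tested probes passed (0.973% as higher in A46), 4 of the markers did. UGT8, ZNF488 and KCNS1 were lower and ACKR1 higher in A46. Their limma adjusted p was 0.0624, 0.0841, 0.341 and 0.430 without the block and 0.0287, 0.0391, 0.0340 and 0.0473 with it. With the scan day as a fixed term 1.04% of all tested probes passed. Of the markers only KCNS1 did (limma adjusted p = 0.0478, against 0.0736 for UGT8, 0.113 for ZNF488 and 0.0708 for ACKR1). In the blocked fit without the pair of replicate 1, 2 or 4 none of the 4 markers passed (limma adjusted p = 0.116 to 0.199). Of all tested probes 2, 0 and 1 did so there. Without the pair of replicate 3 UGT8 and KCNS1 passed (0.0292 and 0.0319), as did 405 of all tested probes. Of 16 oligodendrocyte markers, 3 had a named probe (UGT8, TSPAN2 and ZNF488), and their summed level, in multiples of the 75th percentile, was 0.0908 to 0.132 in A46 and 0.251 to 0.516 in M1. None of the 3 was at 0, but UGT8 made up most of the sum. The mean log2 level of UGT8 was -3.60 in A46 and -1.96 in M1. That of TSPAN2 was -5.59 and -5.21, and that of ZNF488 -6.59 and -5.22. The sum thus does not weigh the 3 markers alike. How many of all tested probes separate the areas in that direction was not counted, so nothing is drawn from the separation of the sums. Of 17 markers of GABAergic neurons only KCNS1 had a named probe, at 5.25 to 9.81 in A46 and 9.94 to 17.7 in M1. Whether KCNS1 is particular to these neurons in macaque cortex was not tested, so its level does not measure their share. Of 8 astrocyte markers only FGFR3 did, at 6.44 to 8.48 in A46 and 5.88 to 7.90 in M1, and of 10 markers of endothelium and mural cells only ACKR1 did, at 2.25 to 3.81 and 1.52 to 2.91. HBE1, the 1 of 7 blood markers with a named probe, lay at 0.0102 to 0.0251 in A46 and 0.0116 to 0.0244 in M1. This was a low signal, 13.9 to 46.5 and 16.4 to 48.9 scanner units, and it does not measure the blood content of the samples. None of the markers of glutamatergic neurons (SLC17A7 among them), oligodendrocyte precursors or microglia could be matched to a probe, so the labelled tissue could not be checked by these. In RNA of whole tissue, fewer cells of a type and less RNA per cell cannot be told apart. The part of the cell types in the GRIK1 difference was not tested.

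The named genes whose levels ran most like those of a subunit were sought among 546 others by Pearson's r over the 8 arrays. These arrays share areas, numbers and scan days, and the highest of many correlations are given as a description. For GRIK1 they were NEURL1, a ubiquitin ligase (r = 0.923, Spearman's rho = 0.952), SPC24, a kinetochore protein (r = 0.919, rho = 0.929), and the zinc finger gene ZNF483 (r = 0.892, rho = 0.857). All 3 stood higher in A46, by 0.36, 0.41 and 0.57 log2 units, and none passed the threshold, with or without the block. That direction follows largely from the selection, since they were picked for following GRIK1 across both areas. Once the area means were subtracted, KCNS1, a silent potassium channel subunit, followed GRIK1 most closely (r = 0.911, rho = 0.810), although it stood lower in A46 than in M1 by 0.73 log2 units. It was followed by OXER1, a receptor for oxidised fatty acids (r = 0.910, rho = 0.595), and ZNF483 (r = 0.886, rho = 0.690).

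For GRIK3 the closest levels were those of SNRNP25, a protein of the minor spliceosome (r = 0.891, rho = 0.690), TM9SF3 (r = 0.887, rho = 0.595) and the chemokine gene CX3CL1 (r = 0.881, rho = 0.619). The rho values were well below r, and A46 replicate 1 was the low array of GRIK3 by 0.48 log2 units. After subtraction of the area means AMER1 (r = 0.964, rho = 0.929), the glycine transporter gene SLC6A9 (r = 0.963, rho = 0.952) and PFKFB3, a regulator of glycolysis (r = 0.922, rho = 0.762), came closest. For GABRA5 they were CLIC5 (r = 0.929, rho = 0.786), the metalloprotease gene ADAM9 (r = 0.899, rho = 0.714) and DRD2, the dopamine D2 receptor (r = 0.880, rho = 0.762). Within areas they were CLIC5 (r = 0.968, rho = 0.929), LCMT2 (r = 0.896, rho = 0.857) and ADAM9 (r = 0.894, rho = 0.833).

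**Figure D4:**
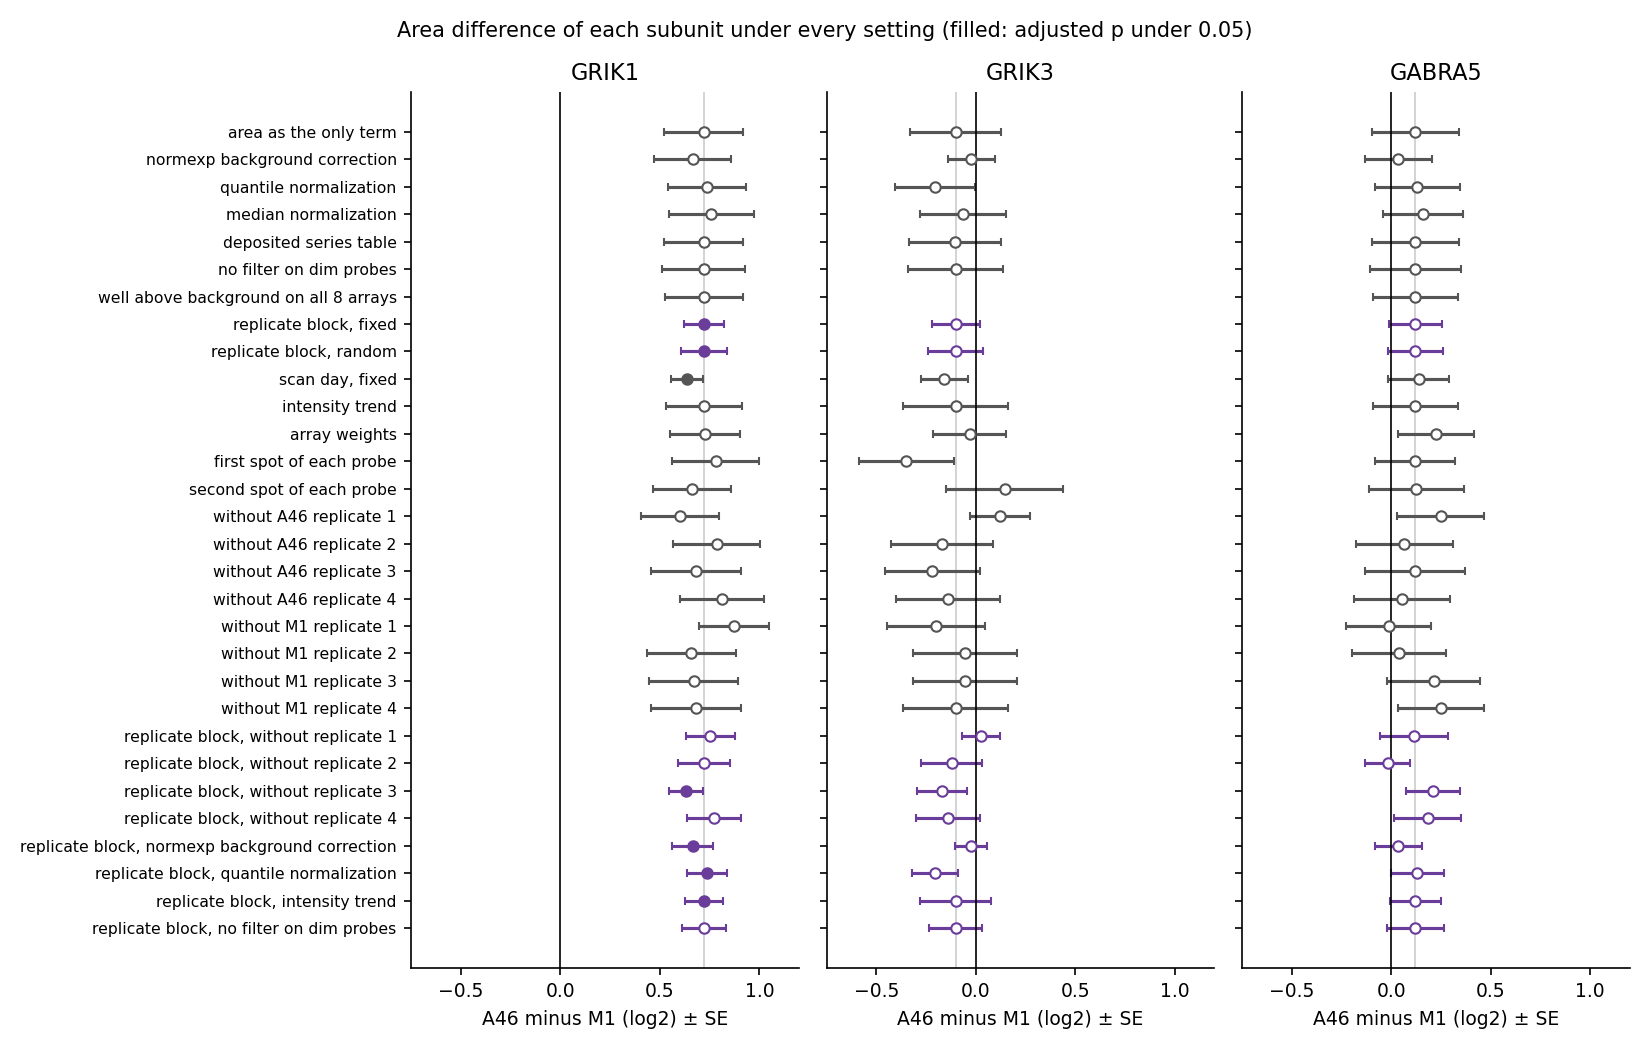
Difference between the areas (A46 minus M1, log2, ± SE) of GRIK1, GRIK3 and GABRA5 under each setting of normalization, filter, block and left-out array (purple: with the replicate block; filled: adjusted p under 0.05; no point where the probe was not tested). GRIK1 stays between 0.60 and 0.87, while the values of GRIK3 and GABRA5 lie on both sides of 0.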

How the data were processed

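Total RNA was labelled with Cy3 after oligo(dT) priming, per the labels' protocols. The deposited scanner files, made with Agilent Feature Extraction 10.7.3.1 on a design of build rheMac2, per the file headers, give the processed signal of each spot, an intensity in linear units that was not normalized between arrays and has a background-subtracted signal in a column beside it. The authors' deposited series table of log2 values was used as an alternative; its column medians lay between -0.06 and 0.09, its baseline is unknown, and differences between its columns followed the scanner values (slope 1.00, median deviation of at most 0.0091).

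Control spots and outlier spots (0 to 220 per array) were left out, no spot was saturated, log2 intensities of the 2 spots of a probe were averaged, and the 75th percentile of the array was subtracted. Fits used limma 3.58.1 in R 4.3.3 and adjusted p-values by Benjamini-Hochberg over the 14698 tested probes; the fits were tested on simulated data. Permutations used scipy 1.17.1. Precision is limited by having 4 arrays per area, with an SE of 0.18 for the median probe. RefSeq identifiers were matched without versions to the table of assembly T2T-MMU8v2.0 (942 of 5583 probes), used for names only.

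Same-numbered arrays correlated over the minimum of 0.1 set for a pairing in all 4 pairs (0.726, 0.634, 0.166 and 0.858). So did 2 of 12 pairs of unlike number. These were A46 replicate 2 with M1 replicate 3 (0.262, scanned on the same day) and A46 replicate 3 with M1 replicate 4 (0.483). No label says that a number marks an animal; if arrays of an area share an animal, p-values reflect technical spread only. The genes and lists were chosen with earlier results of these data known. Named were the 3 genes, list members with a named probe, and the 3 genes most like each, by level and by deviation from the area means. Alternatives concerned background, normalization, filter, blocks, weights, spots and left-out arrays. No sequence or coordinate is given.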

Additional observations from a re-analysis of the deposited data

Results flagged for a closer look

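The 4 arrays of an area were checked for a lone extreme value in 38 sets, the levels of each named receptor-pathway and marker gene and the ratios between subunits in each area, and 4 sets held one. Chance flags about 1 in 20 sets, or 1.9 of these. M1 replicate 1 stood at -0.26 for GRIK1, with the others between -0.90 and -0.83. A46 replicate 1 stood at 7.73 for the log2 ratio of GRIK1 to GRIK3, with the others between 6.30 and 6.46. Among the markers, M1 replicate 2 stood at -1.14 for UGT8 (others -2.28 to -2.13) and M1 replicate 4 at 1.54 for ACKR1 (others 0.61 to 0.69).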

How the results depend on the processing

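The GRIK1 difference was positive in all 30 alternatives (0.60 to 0.87), but for many of them this sign was fixed in advance. With the normalization unchanged and all arrays kept, the replicate blocks, filters, intensity trend and sign-flip test leave the estimate at 0.72. With so little overlap between the areas, no single left-out array could turn the sign either. The GRIK1 difference passed in 7 alternatives. It did so with the replicate block, fixed or random (0.72, limma adjusted p = 0.0366 and 0.0114), and with the scan day as a fixed term (0.63). The block without the pair of replicate 3 (0.63) was another. The others, chosen after seeing the data, were the block with normexp (0.66), quantile normalization (0.74) or an intensity trend (0.72). With the block and no filter on dim probes it did not pass (limma adjusted p = 0.122). GRIK3 and GABRA5 passed in no setting. GRIK3 turned positive with the second spots (0.15), without A46 replicate 1 (0.12) and in the block without replicate 1 (0.025); leaving out 1 array gave -0.22 to 0.12. GABRA5 turned negative without M1 replicate 1 (-0.013) and in the block without replicate 2 (-0.017); leaving out 1 array gave -0.013 to 0.25. The cause was not tested. The 3 comparisons between genes kept their sign in all 12 alternatives each, and none passed after adjustment; before it, GRIK1 against GRIK3 with normexp reached an exact p of 0.0286 (0.69; 0.0857 adjusted). With an array left out, the exact p cannot go below 0.0571, so those values bear on the sign alone.

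The count of 27 probes was 41 with normexp, 45 with an intensity trend, 138 with array weights, 13 and 16 with the first or second spots, 153 with the scan day, 380 with a fixed and 984 with a random block, and 0 with no filter (1371 at an unadjusted limma p under 0.05). With 1 array left out it was 0 to 4 (975 to 1830). With the block it was 2, 0, 405 and 1 without the pairs of replicates 1 to 4, 487 with normexp, 386 with quantile normalization, 613 with a trend and 0 with no filter (2955). A fit with the slide as a random block could not be made, since 1 slide alone held over 1 array. GRIK3 has no value where all 8 arrays had to be well above background. Low signal limits GRIK3.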
